A study of Drosophila melanogaster with 25 samples.

Results

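RNA recovered with antiserum Gp01, raised against the RNA-binding protein Shep, was compared with the nuclear RNA of the same Drosophila cell line. The 2 libraries of Shep Gp01 precipitate and the 6 input libraries of Kc167 cells were taken by their labels, which makes 8 of the 22 distinct libraries of the series. One input, replicate 3, is listed for both sequencers with identical values and was counted once. Kc167 is an established embryonic line with blood-cell properties. All groups come from nuclear extracts, and the labels name no treatment, genotype, allele or agent. The labels describe extracts precleared on beads with preimmune serum, precipitation on beads carrying the antiserum, selection of polyadenylated RNA and Illumina sequencing (RIP-seq). No mock precipitate was used here, so RNA that binds to beads or serum cannot be told apart from RNA bound by Shep. The labels call the libraries biological replicates without saying what was kept separate. The gene tests below estimate the spread over all 22 libraries, which include other precipitates and a second cell line. A p-value measures the spread between libraries only.

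Shep, the product of alan shepard, carries RNA recognition motifs and is known in flies for roles in the nervous system. It also associates with the gypsy insulator complex, in which the zinc-finger protein Su(Hw) binds DNA, and it counteracts that insulator in neural cells. In RIP-seq an RNA that travels with the antibody target takes a larger share of the precipitate than of the input. Without a spike-in each share depends on what else is in the library.

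Gene counts were 40008034 and 24423074 in Gp01 libraries 1 and 2 and ran from 8326741 to 44773161 in the inputs. The labels give the sequencer and the quality encoding, which form 4 sequencing classes. Gp01 1 shares the class HiSeq with PHRED64 qualities with inputs 4 and 5, and Gp01 2 shares HiSeq with PHRED33 with input 6. Inputs 1 and 2 were read on the GA II, and input 3 is the sample listed for both machines. Levels below are in CPM, the usual unit of counts per library size, with library sizes scaled by TMM, as mean ± SD over libraries. Folds are log2 values ± SE from edgeR's quasi-likelihood fit with the sequencing class as a term. The SE was derived as the absolute fold over the square root of the F statistic of its test, and is approximate. A gene is called at a Benjamini-Hochberg adjusted p of 0.05 over all 9961 genes tested. Because of that term a fold can differ from the ratio of the 2 means. Folds within each class, from log2 CPM with a prior count of 2, are given beside it for some genes.

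Of the 16037 gene identifiers, 172 could be paired with a symbol, and 80 of these were tested. The list of haemocyte markers, the list of insulator proteins and the list of RNA-binding proteins had 0 tested members, so the blood-cell identity of the line and the mRNAs of Shep and Su(Hw) were not checked here. In 18 lists by symbol there were 422 symbols, of which 14 were tested, and 0 lists reached 5 tested members. The neuronal list had 1 tested member, mfas (midline fasciclin), at 13.2 ± 6.07 CPM with Gp01 and 19.3 ± 12.3 CPM in the inputs. In these bulk extracts fewer cells with an RNA and less of that RNA per cell cannot be told apart.

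The Gp01 libraries differed from the inputs in their make-up before any single gene was tested. Reads that fell outside annotated genes took 8.86% and 15.8% of uniquely placed reads in Gp01 1 and 2. In the inputs they took 37.0% at the lowest, 44.3% at the median and 54.6% at the highest. Uniquely placed reads of the precipitates thus lay in genes more often, and the groups did not overlap. Reads in more than 1 gene went the other way, with 2.57% and 2.56% of uniquely placed reads in Gp01 1 and 2 against 0.911% to 1.26% in the inputs. The identifier FBgn0085813, which has no symbol here and was singled out after its values were seen, took 6.17% and 6.68% of gene counts with Gp01. It took 13.7% at the lowest, 23.1% at the median and 30.1% at the highest in the inputs. The fitted log2 fold of this gene was -2.42 ± 0.55 (adjusted p = 0.00498, edgeR). The Rb6 antiserum against Shep gave 26.7% and 19.6% of reads outside genes, and 2.75% and 2.87% of counts in FBgn0085813. In the same class as Gp01 1 and 2 these 2 Rb6 libraries held more reads outside genes and less of FBgn0085813. The Kc libraries of Rb5, a further antiserum against Shep, and of Su(Hw) held 21.9% to 31.4% of reads outside genes. They held 3.09% to 9.46% of counts in FBgn0085813. All Kc precipitates thus lay below the input range on both of these shares, which was not particular to Gp01. Over 9 such measures, an exact two-sided permutation test of 2 libraries against 6 has 28 splits and cannot give a p below 0.0714. It gave that p for 8 measures (0.0804 after Benjamini-Hochberg adjustment) and 0.143 for reads placed at several positions. Of these 8 measures, 2 are sums over genes chosen by low input values, given further below. That choice sets their direction, so nothing is read from their p-values.

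**Figure D1:**
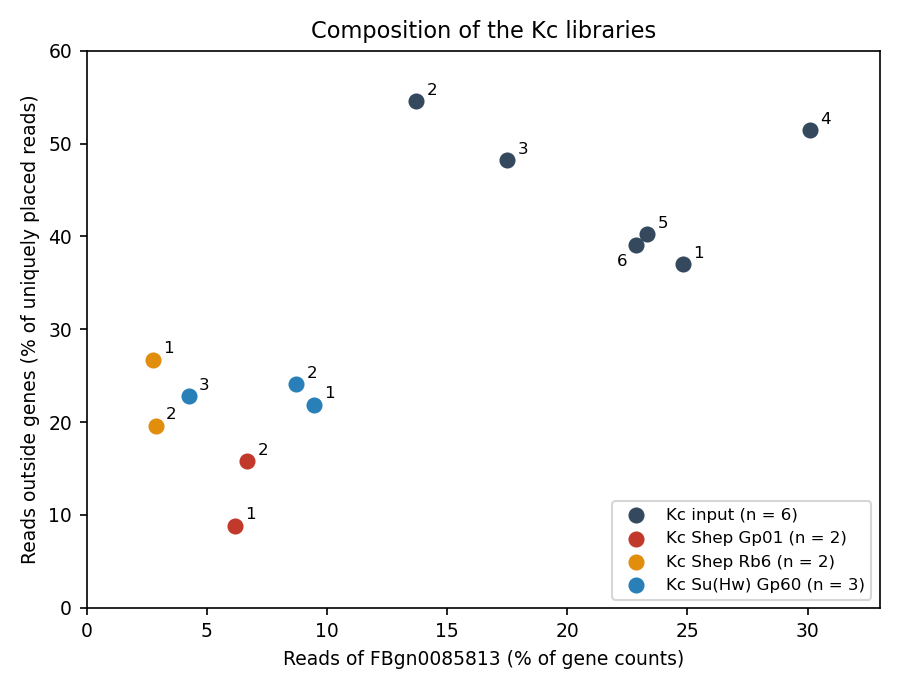
Each point is 1 Kc library, numbered by replicate, with the share of gene counts in FBgn0085813 on the x axis (percent) and the share of uniquely placed reads outside genes on the y axis (percent). The 2 Gp01 libraries lie lowest on the y axis at 8.86% and 15.8%, and the 6 inputs lie above 36% there.

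Across all genes Gp01 called 20.2% of those tested, 988 higher (9.92%) and 1021 lower (10.2%). Among the called genes, 578 rose and 681 fell at least 2-fold. For 1515 called genes both Gp01 libraries lay on one side of all 6 inputs, 753 above and 762 below, or 15.2% of the genes tested. The direction of a call went with the level of the gene. Among genes under 1 CPM, taken as the mean of both groups, 204 rose and 50 fell, and 80.3% of calls were rises. Between 1 and 10 CPM 203 rose and 194 fell, and between 10 and 100 CPM 490 rose and 559 fell. At 100 CPM or more 91 rose and 218 fell, so that rises made up 29.4% of calls there. The median log2 fold ran in the same order, from 0.59 under 1 CPM through 0.01 and -0.02 to -0.11 at 100 CPM or more. Over all tested genes that median was 0.09. The filter on low counts used all 22 libraries, so genes could pass it through other groups, and 37 tested genes had 0 counts in all 8 libraries. With the compared groups alone, 8440 genes were tested, of which 661 were called higher and 851 lower. The median was 0.018 there, and the split by level was not made for that setting. Among called genes, those at high levels mostly fell and those under 1 CPM mostly rose. Of the 114 tested genes with 0 counts in all 6 inputs, 18 were called higher, and their fitted folds are no measure of size.

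**Figure D2:**
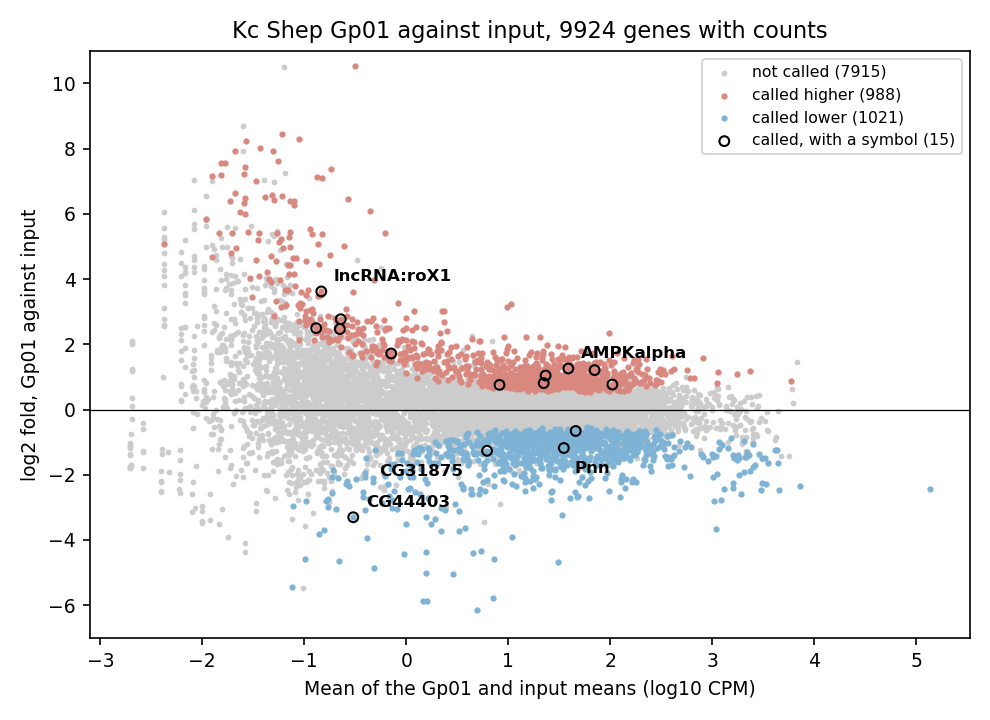
Each point is 1 of 9924 tested genes with counts in these libraries, with the mean of the Gp01 and input means (log10 CPM) on the x axis and the log2 fold of Gp01 against input on the y axis. Calls lie on both sides of the line at all levels, and the share above it falls from low to high levels. Open circles mark the 15 called genes with a symbol.

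These directions are relative to the scaling. The TMM factors were 1.497 and 1.52 for the Gp01 libraries and 0.939 to 0.988 for the inputs. Scaled by library totals alone, a setting added after seeing the data, the median log2 fold of all genes moved from 0.09 to 0.68, and edgeR called 2853 genes higher and 242 lower. The count of calls also depended on single libraries. It was 1072 without input 6, 760 without Gp01 2 and 235 without Gp01 1, beside 2009 with all.

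The 2 Gp01 libraries can be read against separate inputs, since each has its own class. The fold of Gp01 1 against inputs 4 and 5 was set beside that of Gp01 2 against input 6 over 5166 genes with an input mean of at least 10 CPM. Across these genes Pearson's r was 0.88 and Spearman's rho 0.86. Genes are not independent replicates, and the value is a description. The sign was the same for 4348 of these genes, or 84.2%. Over all tested genes r was 0.75.

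**Figure D3:**
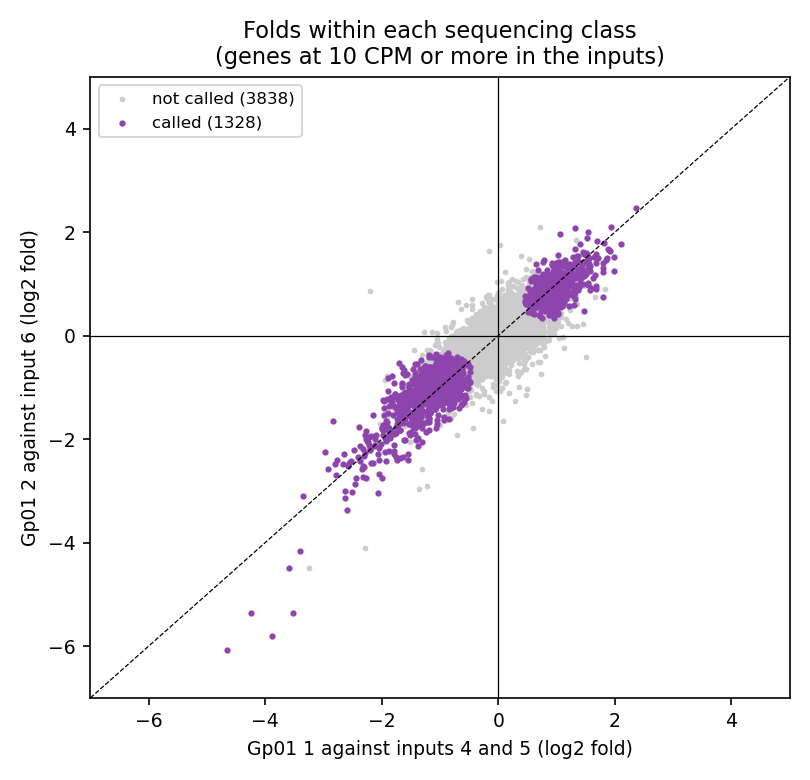
Each point is 1 of 5166 genes with an input mean of at least 10 CPM, with the log2 fold of Gp01 1 against inputs 4 and 5 on the x axis and of Gp01 2 against input 6 on the y axis. Called genes (1328) lie along the dashed line of equal folds, but their calls rest on these same libraries, which favours such a place. The 2 axes share no library.

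Of the 80 named genes that could be tested, 11 were higher with Gp01 and 4 lower, so they were called about as often as the 20.2% of all genes. Of these 15, 10 had both Gp01 libraries outside the range of the inputs. The called rises described first were in a signalling kinase, a gene of unnamed function, a transcription cofactor and a ubiquitin ligase.

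AMPKalpha (FBgn0023169) encodes the catalytic subunit of the AMP-activated kinase, which senses low cellular energy. It stood at 51.9 and 58.9 CPM in Gp01 1 and 2. In the inputs it ran from 19.3 at the lowest through 22.6 at the median to 25.6 CPM at the highest. Both precipitates were above every input by a wide gap, and the inputs lay close together. The means were 55.4 ± 4.92 CPM (n = 2) and 22.3 ± 2.23 CPM (n = 6), with a fitted log2 fold of 1.26 ± 0.22 (adjusted p = 0.000727, edgeR), with 1.09 and 1.38 within the 2 classes. This call held under all 19 alternatives, with log2 folds from 1.16 to 1.86.

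CG9018 (FBgn0035318), whose function is not stated here, stood at 101 and 85.0 CPM with Gp01. The inputs ran from 39.1 through 43.6 to 61.0 CPM, so again the groups did not overlap. Its log2 fold was 1.21 ± 0.19 (adjusted p = 0.000350, edgeR), with 1.29 and 1.12 within the classes, and it too was called under all 19 alternatives.

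MED1 (FBgn0037109) encodes a subunit of Mediator, the complex that links transcription factors to RNA polymerase II. With Gp01 it stood at 30.1 and 26.9 CPM, and in the inputs at 11.2 to 26.1 CPM with a median of 17.4. The gap between the groups was narrow, because inputs 1 and 3 stood high at 22.2 and 26.1 CPM while those of the Gp01 classes lay between 11.2 and 16.7 CPM. The log2 fold was 1.04 ± 0.22 (adjusted p = 0.00319, edgeR), with 1.00 and 1.26 within the classes. It was not called without Gp01 1 (adjusted p = 0.0882, edgeR). Without the class its log2 fold was 0.67, and with the replicate number as a block instead it was 0.35, neither of them called.

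Herc4 (FBgn0035207), a HECT-type ubiquitin ligase, stood at 26.8 and 33.2 CPM against 9.84 to 20.8 CPM in the inputs, with an input median of 14.4. The groups did not overlap. The log2 fold was 0.81 ± 0.21 (adjusted p = 0.0114, edgeR), with 0.60 and 1.07 within the classes. Its call ended without input 6, Gp01 1 or Gp01 2 (adjusted p from 0.0916 to 0.155, edgeR) and with the compared groups alone.

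Vps15 (FBgn0260935), the regulatory kinase of the lipid kinase complex that acts in endosome traffic and autophagy, rose less. It stood at 8.98 and 11.2 CPM with Gp01, and the inputs ran from 5.26 through 5.93 to 9.63 CPM. Input 3, at 9.63 CPM, lay above Gp01 1, and the other 5 inputs lay at 6.10 CPM or below. The log2 fold was 0.76 ± 0.23 (adjusted p = 0.0248, edgeR), with 0.67 and 0.86 within the classes. Without input 6, Gp01 1 or Gp01 2 the call ended (adjusted p from 0.130 to 0.284, edgeR). So it did with no filter, without the class, with the block, with the compared groups alone and with HiSeq libraries alone (adjusted p from 0.057 to 0.205, edgeR).

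CG12091 (FBgn0035228) rose as well, from 86.5 ± 17.7 CPM in the inputs to 124 ± 23.7 CPM, with a fitted log2 fold of 0.77 ± 0.20 (adjusted p = 0.0133, edgeR). Gp01 2, at 107 CPM, lay under input 1 at 117 CPM, so the groups overlapped. Without input 6, Gp01 1 or Gp01 2 it was not called (adjusted p from 0.0618 to 0.311, edgeR), nor with no filter (0.0641) or without the class (0.145). With the replicate block the log2 fold was 0.22 (0.573).

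The 5 other rises were at RNAs near the limit of detection, where the raw counts show what the folds rest on. The noncoding RNA roX1 (lncRNA:roX1, FBgn0019661) is a scaffold of the MSL complex, which coats the X chromosome of male flies. It had 19 and 7 counts in Gp01 1 and 2 and between 0 and 2 in each of the inputs. The levels were 0.253 ± 0.0910 CPM against 0.0407 ± 0.0462 CPM, with a fitted log2 fold of 3.62 ± 0.93 (adjusted p = 0.0106, edgeR), and the groups did not overlap. Within the classes its log2 folds were 2.32 and 1.26, both below the fitted one. Without Gp01 1 the call ended (adjusted p = 0.285, edgeR), as it did with the compared groups alone (0.0566) and with the replicate block, where the log2 fold was 1.67 (0.354). The Su(Hw) precipitates of Kc cells held 3, 35 and 5 counts of it.

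Alp11 (FBgn0030661), an alkaline phosphatase, had 23 and 14 counts with Gp01 and 0 to 4 in the inputs. Both precipitates stood above all inputs, with a log2 fold of 2.47 ± 0.76 (adjusted p = 0.0274, edgeR), with 2.22 and 1.53 within the classes. It was lost without any 1 of inputs 4, 5 and 6, Gp01 1 and Gp01 2 (adjusted p from 0.0629 to 0.398, edgeR), under limma voom (0.0563) and with the replicate block (0.190). Sqa (sqa, FBgn0259678), a kinase related to myosin light chain kinase, had 8 and 11 counts against 0 to 2. For sqa the fitted log2 fold was 2.50 ± 0.79 (adjusted p = 0.0321, edgeR), with 0.78 and 2.17 within the classes. Its groups did not overlap, and the call ended without input 6, Gp01 1 or Gp01 2 (adjusted p from 0.184 to 0.231, edgeR). It also ended with no filter, without the class and with HiSeq libraries alone (adjusted p = 0.0532, 0.0752 and 0.0763, edgeR), and with the block, where the log2 fold was 0.98 (0.571).

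PsGEF (FBgn0264598), a guanine nucleotide exchange factor, had 19 and 13 counts with Gp01 and 1 to 4 in the inputs. Its fitted log2 fold was 2.77 ± 0.70 (adjusted p = 0.00947, edgeR), with 1.76 and 1.44 within the classes, both below the fitted one. On the CPM scale the groups overlapped, since the 4 counts of the shallow input 1 came to 0.377 CPM. The esterase alpha-Est4 (FBgn0015572) had 29 and 66 counts against 1 to 23. Its fitted log2 fold was 1.72 ± 0.48 (adjusted p = 0.0168, edgeR), with 1.24 and 1.61 within the classes. For this gene Gp01 1, at 0.484 CPM, lay inside the range of the inputs. Both lost their calls without Gp01 1 or Gp01 2 (adjusted p from 0.0556 to 0.233 for PsGEF, edgeR), and alpha-Est4 also without input 6 (0.0819 to 0.216). PsGEF was not called without the class (log2 fold 1.80, adjusted p = 0.149, edgeR) or with the block (0.65, 0.654). For alpha-Est4 the call also ended with the compared groups alone and with the block (adjusted p = 0.0685 and 0.131, edgeR). None of roX1, Alp11, sqa, PsGEF and alpha-Est4 was called between Gp01 and Rb6 (adjusted p from 0.0991 to 0.397, edgeR). Nor was any called between Gp01 and Su(Hw) (0.354 to 0.987). The Su(Hw) means of roX1, PsGEF and sqa lay above the Gp01 means, and those of Alp11 and alpha-Est4 below.

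RNAs nearly absent from the inputs are given beside these 5 genes as a description. The 893 tested genes with an input mean under 0.05 CPM came together to 53.8 and 70.3 CPM in Gp01 1 and 2 and to 10.9 to 28.8 CPM in the inputs. These genes were chosen by low input values, which itself sets this direction, and nothing is read from it. Of these genes, 44 reached a mean of 10 CPM in inputs of BG3, a line from the larval nervous system, where they summed to 2596 and 2337 CPM. In Gp01 1 and 2 those 44 summed to 1.84 and 1.99 CPM and in the Kc inputs to 0.283 to 0.983 CPM. Of all 893 low-input genes 111 were called higher with Gp01 and 0 lower. Of the 44 among them that were high in BG3 inputs, 7 (15.9%) were called higher and 0 lower, beside 9.92% higher of all tested genes. The choice by low input values sets this direction too, and nothing is read from these shares. The part of such RNA in the rises at low levels was not tested.

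**Figure D4:**
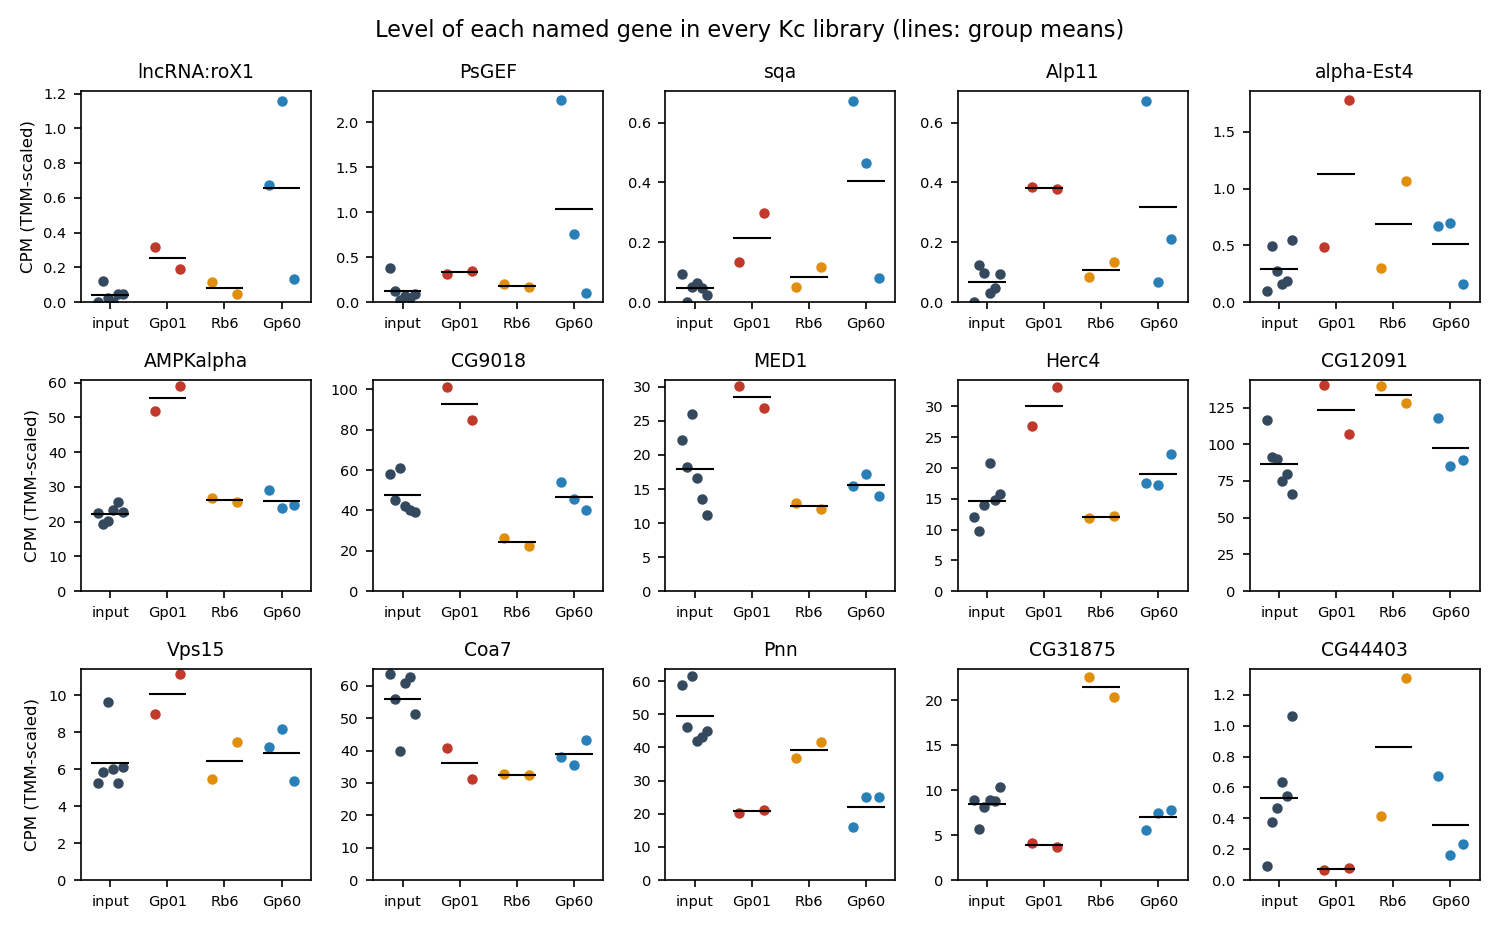
Each panel shows 1 of the 15 called genes with a symbol, with CPM on the y axis from 0, points for single Kc libraries and lines for group means (input n = 6, Gp01 n = 2, Rb6 n = 2, Su(Hw) Gp60 n = 3). AMPKalpha, CG9018, MED1 and Herc4 stand higher in both Gp01 libraries than in every other library drawn, and CG31875 and CG44403 lower.

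The 4 called falls included a splicing factor and a mitochondrial assembly factor. Pnn (FBgn0037737), the pinin homologue, takes part in RNA splicing and in the complex left at exon junctions. It stood at 20.3 and 21.2 CPM with Gp01 and ran from 41.9 through 45.5 to 61.5 CPM in the inputs. Every input lay well above both precipitates, and the precipitates lay close together. The log2 fold was -1.18 ± 0.34 (adjusted p = 0.0186, edgeR), with -1.06 and -1.09 within the classes. Without input 6, Gp01 1 or Gp01 2 it was not called (adjusted p from 0.0559 to 0.247, edgeR), nor with HiSeq libraries alone (0.063). With library totals its log2 fold was -0.59 (adjusted p = 0.299, edgeR).

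CG31875 (FBgn0051875) stood at 4.12 and 3.67 CPM with Gp01 against 5.73 to 10.4 CPM in the inputs, with an input median of 8.91. The groups did not overlap, and the log2 fold was -1.27 ± 0.24 (adjusted p = 0.00119, edgeR), with -1.10 and -1.49 within the classes. It was called under each alternative except library totals. There its log2 fold was -0.67.

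Coa7 (FBgn0039965), an assembly factor of cytochrome c oxidase, fell by 0.66 ± 0.23 on the log2 scale (adjusted p = 0.0454, edgeR). Gp01 1, at 40.7 CPM, lay just above input 3 at 39.7 CPM, while the other inputs held 51.4 to 63.7 CPM. The call ended without any 1 of inputs 2, 4, 5 and 6, Gp01 1 and Gp01 2 (adjusted p from 0.0504 to 0.282, edgeR). It also ended with upper-quartile scaling, no filter, no class, the replicate block, the compared groups alone and HiSeq libraries alone (adjusted p from 0.050 to 0.139, edgeR). With library totals the log2 fold was -0.06 (adjusted p = 0.910, edgeR). CG44403 (FBgn0265576) had 4 and 3 counts with Gp01 against 1 to 45 in the inputs, with a fitted log2 fold of -3.30 ± 0.91 (adjusted p = 0.0159, edgeR), which ended without input 6, Gp01 1 or Gp01 2 (0.0538 to 0.169). It also ended without the class (adjusted p = 0.0609, edgeR) and with the block, where the log2 fold was -1.70 (0.320).

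Genes with no symbol held larger changes than these. Among called genes with no symbol, FBgn0002563 and FBgn0037751 had the largest rises and FBgn0025882 and FBgn0083058 the largest falls at 10 CPM or more in 1 group. FBgn0037751 stood at 15.6 and 20.2 CPM against 0.747 to 2.96 CPM in the inputs, with a fitted log2 fold of 3.14 ± 0.34 (adjusted p = 1.7e-05, edgeR). FBgn0002563 had an uneven rise, at 5.04 CPM in Gp01 1 and 35.0 CPM in Gp01 2 against 0 to 3.48 CPM, with a log2 fold of 3.22 ± 0.66 (adjusted p = 0.00301, edgeR). Without Gp01 1 it was not called (adjusted p = 0.0874, edgeR). FBgn0025882 was at 0.534 and 0.350 CPM with Gp01, and its inputs spread from 1.60 to 40.4 CPM, with a fitted log2 fold of -5.78 ± 1.10 (adjusted p = 0.00267, edgeR). It was lost without Gp01 1 or Gp01 2 (adjusted p = 0.0774 and 0.0571, edgeR) and with the replicate block, where the log2 fold was -3.15 (0.0772). FBgn0083058 was at 1.92 and 4.29 CPM against 12.9 to 179 CPM in the inputs, with a fitted log2 fold of -4.67 ± 0.72 (adjusted p = 0.000673, edgeR). For both of these the inputs differed among themselves by more than 10-fold. Both were also low in other Kc precipitates, with means of 0.967 and 6.14 CPM with Rb6 and 0.114 and 3.04 CPM with Su(Hw). Neither was called between Gp01 and Rb6 or Su(Hw) (adjusted p from 0.337 to 0.886, edgeR). FBgn0037751 was called higher with Gp01 than with Rb6 and Su(Hw) (adjusted p = 0.000726 and 0.0131, edgeR). FBgn0002563 was called higher than with Rb6 (0.0244) but not than with Su(Hw) (0.385).

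The other 65 tested genes with a symbol were not called, 39 with an estimate above 0 and 26 below. Those described here were chosen after their values were seen, by known function or by their place outside the input range. Such a place is common. Called or not, both Gp01 libraries lay above all inputs for 15.1% of all tested genes and below them for 12.2%. At 10 CPM or more in 1 group the log2 folds of the uncalled genes with a symbol lay between -0.86 and 0.61, with SEs from 0.20 to 0.70. In RNA processing, Prp31 (FBgn0036487), a U4/U6 snRNP protein, stood at 88.7 and 107 CPM with Gp01. The inputs ran from 60.001 to 100.0 CPM, and the log2 fold was 0.58 ± 0.23 (adjusted p = 0.0858, edgeR). It was the only other tested member of the list of spliceosome proteins beside Pnn. The gene pps (FBgn0082831), a partner of the snRNP protein Snf, had a log2 fold of 0.46 ± 0.33.

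In chromatin, Su(var)205, which encodes heterochromatin protein HP1a, stood at 436 ± 179 CPM with Gp01 and 435 ± 150 CPM in the inputs, with a fitted log2 fold of 0.22 ± 0.29. Mau2, part of the cohesin loader, had 0.07 ± 0.30 and Asx, a Polycomb-group gene, -0.12 ± 0.41. The histone chaperone gene Nasp lay below every input, at 1.04 and 1.27 CPM against 1.92 to 5.57 CPM, but its log2 fold of -1.38 ± 0.60 was not called (adjusted p = 0.111, edgeR). The gene lwr, the SUMO-conjugating enzyme, was at 1211 and 788 CPM against 602 to 1140 CPM, with a log2 fold of 0.49 ± 0.24.

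Among secreted and matrix genes of blood cells, Idgf3 and LanA were tested, and neither was called. Idgf3, a chitinase-like growth factor, stood at 119 and 107 CPM with Gp01 against 114 to 195 CPM in the inputs, with a fitted log2 fold of -0.54 ± 0.26 (adjusted p = 0.154, edgeR). LanA, the laminin alpha chain, stood at 485 ± 103 CPM against 598 ± 121 CPM, with a fitted log2 fold of -0.60 ± 0.26 (adjusted p = 0.103, edgeR). Among genes of mitochondrial proteins, Coa7 was called lower, as given above. The 6 others described here include estimates on both sides of 0, and none of the 6 was called. The ATP carrier Ant2 had -0.86 ± 0.37, the carboxylase subunit Mccc2 -0.77 ± 0.29, the aldehyde dehydrogenase Aldh -0.40 ± 0.27 and the succinyl-CoA ligase subunit ScsbetaA -0.29 ± 0.22. The estimates above 0 were at lower levels. The mitochondrial channel gene Porin2, at 0.331 ± 0.256 CPM with Gp01, had 0.60 ± 0.69. The acyl-CoA synthetase gene Acsf3, at 4.34 ± 3.32 CPM with Gp01, had 0.28 ± 0.36. For Aldh and ScsbetaA both Gp01 libraries lay under all inputs by a narrow gap, at 413 and 432 against 435 to 817 CPM and at 95.8 and 111.7 against 112.3 to 196 CPM. GAPcenA, a Rab GTPase-activating protein, lay above all inputs at 15.6 and 15.5 against 6.85 to 12.8 CPM, with a log2 fold of 0.61 ± 0.22 (adjusted p = 0.0622, edgeR).

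Of the 92 genes with a symbol that were too low to test, 49 had 0 counts in all 8 libraries and 10 had counts in both Gp01 libraries. The highest count among them in a Gp01 library was 5. The only tested transfer RNA, tRNA:Asn-GTT-1-6, had 6 and 7 counts with Gp01 and 0 or 1 in the inputs (adjusted p = 0.133, edgeR).

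The next question is where Gp01 differed from another antiserum against the same protein. The labels state that independent Shep antibodies gave much alike profiles, without naming them. Set directly against the 2 libraries of antiserum Rb6, which lie in the same 2 classes, Gp01 differed in 28.2% of the tested genes, 1484 higher (14.9%) and 1329 lower (13.3%). Without Gp01 1, Gp01 2, Rb6 1 or Rb6 2 the count of 2813 fell to 1248, 1614, 1012 and 1821. Of the 80 genes with a symbol 13 were higher with Gp01 and 5 lower. CG31875 stood at 22.6 and 20.3 CPM with Rb6 and at 4.12 and 3.67 CPM with Gp01, a log2 difference of -2.46 ± 0.26 (adjusted p = 6.0e-06, edgeR). The Rb6 libraries thus lay above the input range and the Gp01 libraries below it. CG9018 was at 26.1 and 22.6 CPM with Rb6, which is below all inputs, and at 101 and 85.0 CPM with Gp01 (1.93 ± 0.23, edgeR adjusted p = 1.12e-05). The further Shep antiserum Rb5 was not tested against Gp01 here. Its Kc means were 23.6 ± 2.35 CPM for AMPKalpha and 41.7 ± 1.00 CPM for CG9018. For MED1 and Herc4 they were 19.4 ± 2.13 and 13.3 ± 0.65 CPM. These means lay inside the input ranges. For CG31875 the Rb5 mean was 15.65 ± 1.17 CPM, above the input range. The Rb5 means of Pnn, CG12091 and Coa7, at 37.1, 104 and 41.9 CPM, lay between those of the inputs and of Gp01.

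Prp31 was at 21.2 and 30.2 CPM with Rb6 against 88.7 and 107 CPM with Gp01, a log2 difference of 1.94 ± 0.27 (adjusted p = 4.92e-05, edgeR). Idgf3, at 40.1 and 28.1 CPM with Rb6, was higher with Gp01 by 1.75 ± 0.30 and Mau2 by 1.54 ± 0.34 (adjusted p = 0.000258 and 0.00209, edgeR). The call of Mau2 ended without Rb6 1 (adjusted p = 0.0778, edgeR). These genes had not been called against input with Gp01, and the Rb6 libraries lay below the whole input range for each of them. Herc4, at 11.9 and 12.2 CPM with Rb6, was higher with Gp01 by 1.31 ± 0.24 (adjusted p = 0.000489, edgeR), AMPKalpha by 1.08 ± 0.25 and MED1 by 1.19 ± 0.25 (0.00313 and 0.00167). CG43245 was lower with Gp01 by 1.38 on the log2 scale, at -1.38 ± 0.44 (adjusted p = 0.0244, edgeR), and its call ended without any 1 of the 4 libraries (0.103 to 0.216), without the class (0.0556) and with library totals (0.0784). CG12091, Coa7 and Pnn were not called between the antisera, with differences of -0.13 ± 0.23, 0.14 ± 0.25 and -0.92 ± 0.36 (adjusted p = 0.726, 0.725 and 0.0622, edgeR).

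Set against the 3 Kc precipitates of Su(Hw) with antiserum Gp60, Gp01 differed in 8.23% of genes, 425 higher (4.27%) and 395 lower (3.97%), and in 5 higher and 4 lower of those with a symbol. The count of 820 was 7 without Gp01 1, 171 without Gp01 2, and 524, 471 and 405 without Su(Hw) 1, 2 and 3. MED1 was higher with Gp01 by 1.33 ± 0.26, CG9018 by 1.32 ± 0.23 and AMPKalpha by 1.01 ± 0.27 (adjusted p = 0.00562, 0.00276 and 0.0254, edgeR). Prp31 was higher by 1.16 ± 0.28 and Mau2 by 1.205 ± 0.35 (adjusted p = 0.0149 and 0.0385, edgeR), while LanA was lower at -1.14 ± 0.29 (0.0233). Pnn stood at 16.2, 25.0 and 25.0 CPM with Su(Hw), about the level with Gp01, and its difference was 0.01 ± 0.37 (adjusted p = 0.998, edgeR). Only the class of Gp01 1 also holds a Su(Hw) library, and with HiSeq libraries alone the calls fell to 8 genes, which included none of these. The difference was not called without Gp01 1 for any of these 6 genes (adjusted p from 0.142 to 0.423, edgeR), nor without Gp01 2 for AMPKalpha, Prp31, Mau2 and LanA. It also ended without Su(Hw) 3 for these 4, without Su(Hw) 2 for AMPKalpha and without Su(Hw) 1 for Mau2. Without the class MED1, Prp31 and LanA were not called (adjusted p = 0.0683, 0.0657 and 0.131, edgeR). With the replicate block Prp31, Mau2 and LanA were not (adjusted p = 0.0536, 0.0702 and 0.137, edgeR), nor was Mau2 under limma voom (0.0559). With library totals the difference of LanA was -0.22 (adjusted p = 0.667, edgeR).

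**Figure D5:**
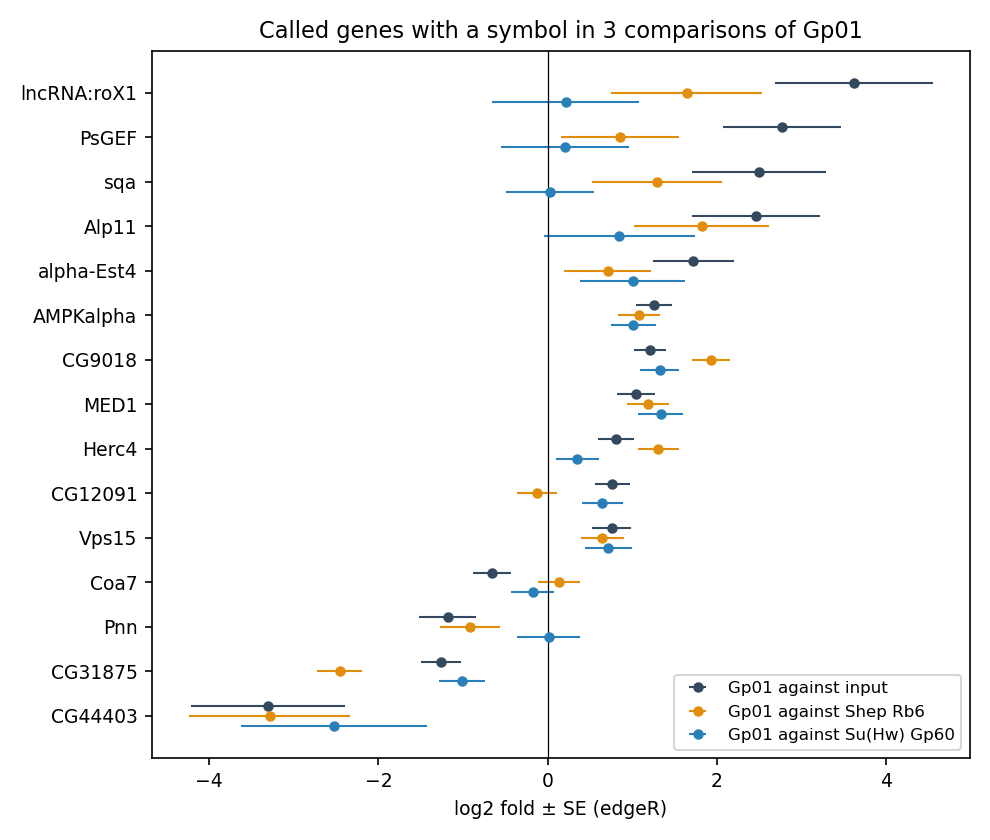
Points are log2 folds of Gp01 against input, against Shep Rb6 and against Su(Hw) Gp60 in Kc cells (x axis) for the 15 called genes with a symbol. Bars are SEs derived from edgeR's F statistic. AMPKalpha, CG9018 and MED1 lie to the right of 0 in all 3 comparisons and CG31875 to the left, while the 3 comparisons share the Gp01 libraries.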

How the data were processed

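Nuclear RNA was measured by RIP-seq in 22 distinct libraries of Kc and BG3 cells (25 samples, 3 of them identical deposits). The authors deposited raw read counts per gene; per the submitters' processing notes, cutadapt 1.2.1, TopHat2, Bowtie2, HTSeq and DESeq were used with build dm3. The strand setting is not given in the sources used here, so overlapping and antisense genes are uncertain. Summary lines that name no gene held 50.2% to 91.2% of all lines summed and were left out. Genes passed filterByExpr (minimum count 10, minimum total 15). All 22 libraries were fitted in edgeR 4.0.16 (R 4.3.3) with 1 mean per group plus the sequencing class, and the robust quasi-likelihood test was run on simulated counts first. DESeq2 1.42.0, limma 3.58.1 (voom), other scalings, filters, covariates and left-out libraries were alternatives. Symbols came from RefSeq synonyms, which matched 172 identifiers. Every called gene with a symbol is named, with the 2 largest rises and falls among genes with none and, for each comparison of antisera, up to 5 called genes each way whose groups do not overlap and whose mean is at least 10 CPM in 1 of them. The same level applies to genes with no symbol. The members and lists were chosen with earlier results of these data known. No sequence is shown.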

Additional observations from a re-analysis of the deposited data

Results flagged for a closer look

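Of 26 sets of input values for the named genes and library measures, 4 held 1 library far from the others, where chance gives about 1 in 20. For PsGEF, input 1 stood at 0.377 CPM, from 4 counts, and the other inputs at 0.0246 to 0.125 CPM. For Vps15, input 3 stood at 9.63 CPM and the others at 5.26 to 6.10 CPM. For FBgn0083058, input 6 stood at 179 CPM and the others at 12.9 to 57.6 CPM. Reads placed at several positions made up 64.1% in input 6 and 35.1% to 42.5% in the other inputs.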

How the results depend on the processing

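Against input, the 2009 calls became 1328 over genes at 10 CPM or more and 3095 with library totals in place of scaling factors (92.2% of them higher), and ranged from 235 to 2028 with single libraries left out. Against Rb6, 2813 calls became 4832 with the compared groups alone and 1012 to 1821 with single libraries left out, and library totals moved the share of higher calls from 52.8% to 68.6%. Against Su(Hw), 820 calls became 1435 with DESeq2, 8 with HiSeq libraries alone, 3319 with library totals (96.8% higher) and 7 to 524 with single libraries left out. Upper-quartile scaling moved the share of higher calls there from 51.8% to 41.3%. The cause was not tested. No gene run under the alternatives turned its direction; FBgn0085813 against input, and AMPKalpha and MED1 against Rb6, were not run under them. The fit of the compared groups alone was not run for Su(Hw), since it had no residual degrees of freedom. The replicate number as a block gave 1684, 2621 and 1020 calls against input, Rb6 and Su(Hw). Same-numbered libraries, 2 pairs against input, had deviations that correlated at 0.389 and 0.166, and libraries of the same class at 0.234 to 0.575. These ranges overlap, and with 2 Gp01 libraries the deviations of one mirror those of the other. The values therefore cannot decide whether the numbers pair the samples, and the main test takes no pairing. With 2 precipitates, changes in RNAs of few counts were at the limit of detection.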
